A study of Mus musculus with 59 samples.

Results

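Vehicle-treated bone marrow was set against vehicle-treated spleen, using the 8 bone marrow and the 8 spleen arrays whose titles name the vehicle. These are 16 of the 59 expression arrays of a study of baclofen in mice. All 16 came from B6C3F1 mice, a hybrid strain, given 0.5% methylcellulose, the vehicle, and no drug. In each tissue 4 samples followed a single dose (1 day) and 4 followed 5 daily doses (5 days), and tissue was taken 2 hours after the last dose. Marrow came from the right humerus and the spleen sample was part of a cross-section, so blood, stroma and capsule of the spleen, and bone, fat and adjoining tissue of the humerus, could be included. The labels used here give no age or sex and do not say that the numbered samples are separate animals, so every p-value rests on the spread among these samples, which may be technical. Marrow RNA was extracted with a PAXgene bone marrow kit and spleen RNA with Qiagen mini columns. Tissue, extraction kit and any normalization done separately for each tissue cannot be told apart.

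Bone marrow is the site where blood cells of nearly every lineage are made in the adult mouse: stem cells give rise to granulocytes, monocytes, red cells, platelets and B cell precursors within a niche of bone, fat and stromal cells. The spleen filters blood and organises immune responses. Its red pulp holds macrophages that clear old red cells, its white pulp holds follicles of mature B cells and sheaths of T cells, and a marginal zone of specialised B cells and macrophages lies between the 2. In the mouse the spleen also makes red cells and some granulocytes. The question of the comparison is which genes differ many-fold between these 2 blood-forming and immune organs in the absence of drug.

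The values are RMA intensities, a summary of the probes of each probe set, and were taken to log2, so that 1 unit is a 2-fold difference. Median intensity was 72.6 to 76.0 in marrow and 74.3 to 76.3 in spleen. The 10th percentile averaged 14.9 in marrow and 12.8 in spleen, and the 90th percentile averaged 918 and 760, so marrow values lay higher at both ends. Correlations between arrays were at least 0.979 within a tissue and at most 0.953 between tissues. The 3' minus 5' difference of the Actb control probe sets, a measure of RNA integrity, was 0.11 to 0.26 in marrow and 0.32 to 0.42 in spleen on the log2 scale. Its part in the results was not tested. Because the median difference over all genes was -0.25 (spleen minus marrow, log2), only differences of at least 4-fold were called, with limma's test against that minimum (treat) and Benjamini-Hochberg adjusted p under 0.05. In this mixed tissue RNA, fewer cells of a type and less RNA per cell cannot be told apart.

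Some spleens carried liver transcripts. The mean level of 14 hepatocyte genes was 9.32 in spleen 5-day replicate 3, 6.91 in replicate 1 and 5.89 in replicate 4, and 4.88 to 5.13 in the other 5 spleens. It was 5.07 to 5.58 in the 8 marrows. Alb, serum albumin, reached 12.33, 8.70 and 8.14 in spleen 5-day replicates 3, 1 and 4 against at most 6.03 in the other spleens. In marrow Alb was 7.39 in 5-day replicate 3 and 4.92 to 5.91 in the other arrays. None of the 14 hepatocyte genes was called between the tissues. Without spleen 5-day replicates 1 and 3, 119 genes were called higher in spleen and 205 higher in marrow. Without replicate 4 as well, a fit chosen after seeing the data that leaves 1 spleen at 5 days and assumes that it varies like the other groups, the counts were 97 and 176. In that fit 23 of the 108 called genes named here kept their direction but missed the call (adjusted p of 0.0522 to 1): Acta1, C1s1, Ccr1, Cd83, Cd8a, Cd8b1, Clec4e, Col2a1, F13a1, Fabp4, Fcgr3, Fcmr, Gimap3, Gimap4, Gimap5, Gimap7, H2-Ab1, H2-Ob, Igll1, Ms4a1, Prg3, Tlr1 and Vsig4.

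Of 18193 genes, 354 differed by at least 4-fold (1.95%). Marrow was higher for 214 genes (1.18%) and spleen for 140 (0.770%). For all 354 the 8 marrow and 8 spleen levels did not overlap, and neither did their within-array percentile ranks. Levels failed to overlap for 47.0% of all genes tested, and ranks for 39.3%, so separation alone was common here. When the 16 arrays were forced to 1 distribution by quantile normalization, which leaves only ranks, the counts became 169 higher in marrow (0.929%) and 186 higher in spleen (1.02%), and the median difference over all genes -0.05. The share of calls that were higher in spleen went from 39.5% to 52.4%, so the balance between the directions depended on this scaling. With a minimum of 2-fold, 837 genes were higher in marrow (4.60%) and 639 in spleen (3.51%), 8.11% of genes in all. This wider set is given beside the 4-fold calls below. Where the count of a list lies near these shares, it does not set the list apart.

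**Figure D1:**
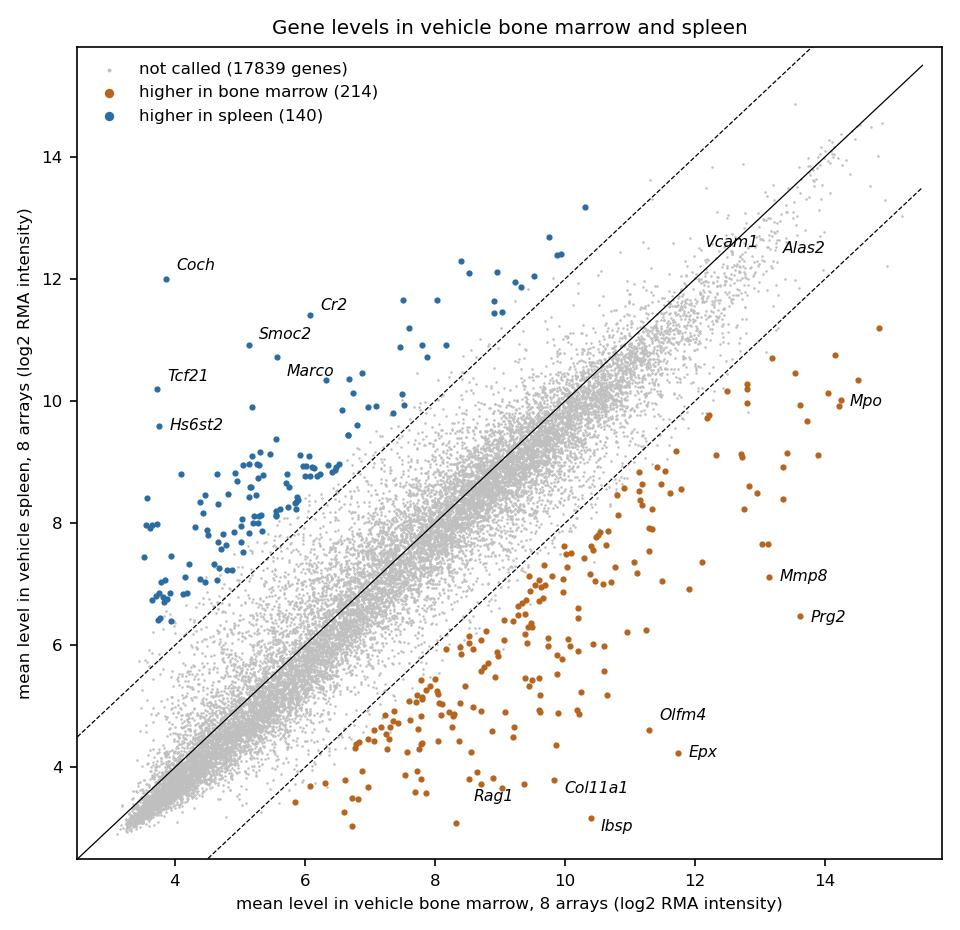
Mean log2 RMA intensity of each of 18193 genes in vehicle bone marrow (x axis) and vehicle spleen (y axis), each over 8 arrays. Brown points are the 214 genes called higher in marrow and blue points the 140 called higher in spleen; the solid line is equality and dashed lines are 4-fold. Coch and Tcf21 stand far above the line, Epx and Ibsp far below it, and Vcam1 and Alas2 lie near it.

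The largest difference of all was Coch (Entrez gene 12810), which encodes cochlin, a secreted matrix protein. Its level was 3.78 to 3.96 in marrow and 11.68 to 12.29 in spleen (medians 3.85 and 12.03). Spleen was higher by 8.15 ± 0.06 (log2, SE; 284-fold; limma adjusted p = 7.05e-20). Every spleen sat near the top of its array and every marrow near the bottom, with median ranks at percentiles 98.7 and 5.30. In the other direction the largest was Epx (Entrez gene 13861), eosinophil peroxidase, at 11.20, 11.69 and 12.74 (lowest, median, highest) in marrow and 4.07, 4.22 and 4.47 in spleen. Marrow was higher by 7.51 ± 0.17 (log2, SE; 182-fold; limma adjusted p = 8.42e-13). RMA values near the bottom of an array carry background, so where 1 tissue lies there the fold describes these values and not a ratio of transcripts.

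Granulocyte genes were the broadest group higher in marrow. All 19 measured genes of granulocyte precursor granules were higher there by at least 2-fold and 17 by at least 4-fold, with none higher in spleen and a median difference of -4.23 (spleen minus marrow, log2). The 4 azurophil granule genes are shown first because they were bright in every marrow. Mpo (Entrez gene 17523), myeloperoxidase, was 14.12, 14.19 and 14.40 in marrow and 8.75, 9.84 and 11.09 in spleen. Elane (Entrez gene 50701), neutrophil elastase, was 13.72, 13.89 and 14.18 in marrow and 8.16, 9.05 and 10.09 in spleen. Marrow levels were tight and spleen levels spread over more than 2 log2 units for Mpo, yet the tissues did not overlap. Marrow exceeded spleen by 4.30 ± 0.21 for Mpo (adjusted p = 4.92e-07) and by 4.78 ± 0.20 for Elane (adjusted p = 3.54e-08, limma). Prtn3 (proteinase 3) and Ctsg (cathepsin G), serine proteases stored in the same granules, were higher by 4.06 ± 0.24 and 4.52 ± 0.24.

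Their promoters are printed because these 4 genes differed together and hold a match to the core of the PU.1 site, GAGGAA. PU.1, encoded by Spi1, is a transcription factor of myeloid and B cells. The sequences are the 250 bases before each start in RefSeq (GRCm38.p6), read 5′ to 3′ on the gene's strand, with matches on that strand in capitals. Elane is at chr10:79886062-79886311 (+ strand), Prtn3 at chr10:79879417-79879666 (+ strand), Mpo at chr11:87793534-87793783 (+ strand) and Ctsg at chr14:56102575-56102824 (- strand).
Elane: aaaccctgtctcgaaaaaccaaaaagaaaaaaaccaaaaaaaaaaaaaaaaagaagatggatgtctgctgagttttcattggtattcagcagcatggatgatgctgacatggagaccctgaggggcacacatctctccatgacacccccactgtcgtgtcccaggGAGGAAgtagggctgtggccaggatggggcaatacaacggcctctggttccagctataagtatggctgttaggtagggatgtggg
Prtn3: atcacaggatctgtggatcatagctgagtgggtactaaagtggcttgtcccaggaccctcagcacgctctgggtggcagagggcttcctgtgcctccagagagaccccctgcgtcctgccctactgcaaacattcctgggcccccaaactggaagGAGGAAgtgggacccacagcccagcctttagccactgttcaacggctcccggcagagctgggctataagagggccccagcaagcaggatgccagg
Mpo: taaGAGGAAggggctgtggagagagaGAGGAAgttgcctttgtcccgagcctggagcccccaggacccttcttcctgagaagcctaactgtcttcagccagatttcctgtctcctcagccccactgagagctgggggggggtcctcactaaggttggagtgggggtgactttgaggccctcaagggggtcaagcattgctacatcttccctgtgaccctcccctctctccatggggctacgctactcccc
Ctsg: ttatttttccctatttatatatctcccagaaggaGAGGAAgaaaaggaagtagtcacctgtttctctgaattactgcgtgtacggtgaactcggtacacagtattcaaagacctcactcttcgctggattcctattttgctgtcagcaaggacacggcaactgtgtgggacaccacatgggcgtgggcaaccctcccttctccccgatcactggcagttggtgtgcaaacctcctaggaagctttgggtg
The match began 85 bases before the start in Elane, 95 in Prtn3, 216 in Ctsg, and 247 and 224 in Mpo. Searched on both strands, GAGGAA lay in 22.6% of the 11791 tested genes with a single promoter window, 34.7% of the 144 called higher in marrow and 32.1% of the 84 called higher in spleen. It lay in 9 of the 13 called granule genes with such a window. It was 1 of 5 motifs searched, matches of different motifs could overlap, and a match is a string of letters and not a bound site. Spi1 itself was higher in marrow by 1.75 ± 0.07 (log2, SE), which passed 2-fold (limma adjusted p = 1.1e-07) and not 4-fold.

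Genes of later granules were higher in marrow too. Ltf (lactoferrin), Camp (the cathelicidin precursor) and Lcn2 (lipocalin 2), of secondary granules, were higher in marrow by 4.16 ± 0.27, 3.63 ± 0.23 and 4.23 ± 0.25. Cd177, a surface protein of neutrophils, and Ceacam10, of the carcinoembryonic antigen family, were higher by 5.47 ± 0.22 and 5.25 ± 0.19. Olfm4, a granule glycoprotein of part of the neutrophils, showed the largest difference of the list, at 10.71, 11.30 and 11.84 in marrow and 3.55, 4.57 and 5.94 in spleen (102-fold). Lyz2, the lysozyme shared with macrophages, had the smallest at 1.17 ± 0.05. The mature neutrophil list had 16 measured genes, of which 10 were higher in marrow by 4-fold and all 16 by 2-fold. Its metalloproteases led: Mmp8, a collagenase, was higher by 6.01 ± 0.30 and Mmp9, a gelatinase, by 5.36 ± 0.15. S100a8 and S100a9, the most abundant calcium-binding proteins of neutrophils, were 14.89 to 15.22 in every marrow and 12.10 to 13.85 in every spleen. These differences of 1.62 ± 0.16 and 2.15 ± 0.19 did not pass 4-fold, and both genes lie at the bright end where array signal flattens.

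Eosinophil, basophil and mast cell genes gave 9 of 15 members higher in marrow and none in spleen at 4-fold. Prg2, the eosinophil major basic protein, was 13.38 to 14.05 in marrow and 6.16 to 6.96 in spleen, higher in marrow by 7.13 ± 0.10 (140-fold). Its relative Prg3 was higher by 2.68 ± 0.14, past 4-fold in the deposited values and not after quantile normalization (adjusted p = 0.143), and Siglecf, a surface lectin of eosinophils, by 4.09 ± 0.10. Il5ra, the receptor for the eosinophil growth factor, was the 1 member of the 15 that was higher in spleen in sign, by 0.73 ± 0.13, with overlapping levels. Among basophil and mast cell genes, Mcpt8, a basophil protease, was higher in marrow by 4.61 ± 0.12, Cpa3, a mast cell carboxypeptidase, by 3.78 ± 0.09, and the IgE receptor chains Fcer1a and Ms4a2 by 3.66 ± 0.10 and 3.39 ± 0.10. Hdc, which makes histamine, was higher by 3.93 ± 0.19. Gata2, a transcription factor of these lineages and of progenitors, was higher in marrow by 0.52 ± 0.06 on its brightest probe set and by 1.37 on a dimmer one.

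Megakaryocyte and platelet genes were higher in marrow as a group but by less. Of 18 measured, 17 passed 2-fold and 1, Mmrn1 (multimerin 1), passed 4-fold, with a median difference of -2.03. Pf4, platelet factor 4, was 12.88, 13.39 and 13.82 in marrow and 10.64, 11.38 and 11.88 in spleen, so levels did not overlap and both were high. Tubb1, the platelet tubulin, and Itga2b, the platelet integrin chain, were higher in marrow by 2.36 ± 0.16 and 1.93 ± 0.13. The Mmrn1 call (2.55 ± 0.14, adjusted p = 0.0341) missed the threshold under quantile normalization (adjusted p = 0.252) and when any 1 of 10 of the 16 arrays was left out (adjusted p of 0.0542 to 0.0885).

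Monocyte genes were mixed. Of 14 measured, F13a1, a clotting factor subunit of monocytes, was higher in marrow at 4-fold (3.20 ± 0.25), a call that quantile normalization ended (adjusted p = 0.135), and 3 passed 2-fold. Ccr2, the receptor that carries monocytes out of marrow, was higher in marrow by 1.68 ± 0.19. Csf1r, the macrophage growth factor receptor, was higher in spleen in sign, at 12.43 to 12.78 against 11.67 to 12.14, by 0.74 ± 0.07. Of 19 stem and progenitor genes, 15 were lower in spleen in sign (median -0.54, against -0.25 over all genes). Levels did not overlap for 15, against 47.0% of all genes. At 2-fold, 4 passed toward marrow and 2 toward spleen. Those toward marrow included Erg and Myb, transcription factors of stem cells and early progenitors, by 2.15 ± 0.10 and 1.76 ± 0.10. A dimmer Erg probe set showed -0.84. Kit, the stem cell factor receptor, was 9.26 to 9.55 in marrow and 8.67 to 9.18 in spleen, a difference of 0.51 ± 0.06. Mecom, a transcription factor of stem cells, was higher in spleen by 1.45 ± 0.07, and Procr, a stem cell marker that endothelium also carries, was the 1 gene called at 4-fold, higher in spleen by 2.90 ± 0.09 (limma adjusted p = 3.14e-06).

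**Figure D2:**
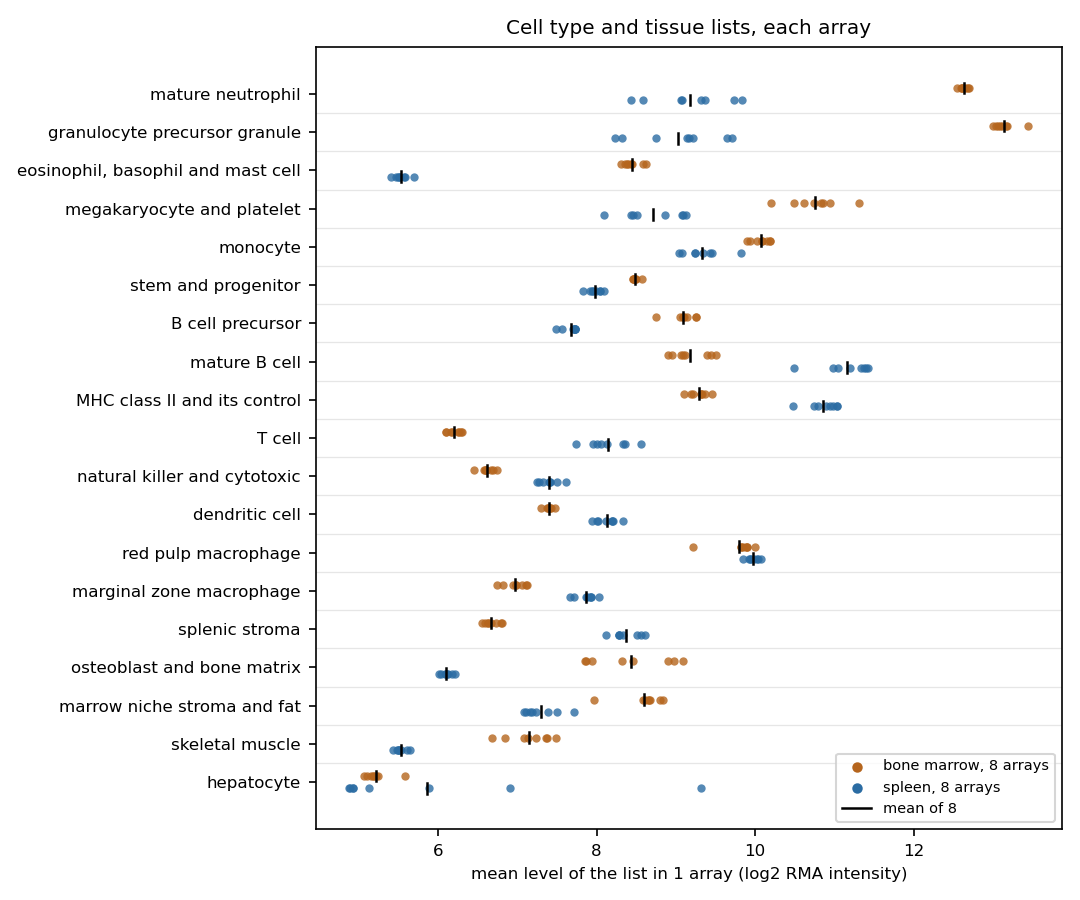
Mean log2 RMA intensity of 19 gene lists (y axis) in each array; brown points are 8 bone marrow arrays, blue points 8 spleen arrays, and black bars the mean of 8. Granulocyte, eosinophil, platelet and bone lists lie higher in marrow, mature B cell, T cell and splenic stroma lists lie higher in spleen, and the red pulp macrophage list lies close in both; 2 spleens stand out on the hepatocyte list.

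Red cell genes were lower in spleen in sign, but most of their levels overlapped. None of 22 erythroid genes passed 4-fold, against 1.95% of all genes. Toward marrow 1 passed 2-fold (4.60% of all genes): Nfe2, a transcription factor shared with platelets. The levels of the other 21 genes overlapped between tissues, while levels of 47.0% of all genes did not. All 22 were lower in spleen in sign. Their median was -0.98, against -0.25 over all genes, and -0.68 against -0.05 after quantile normalization. Marrow was even, with a mean erythroid level of 11.03 to 11.68 over 8 arrays. Spleen was not. Spleen 1-day replicates 1 to 4 were 11.54, 10.91, 9.26 and 10.75, and 5-day replicates 1 to 4 were 8.94, 11.38, 9.77 and 10.46. Some spleens therefore matched marrow and others lay more than 2 log2 units below it, on both days. Klf1, the erythroid Krüppel-like factor, ran from 9.60 to 12.33 in spleen and from 11.78 to 12.54 in marrow. Slc4a1, the anion exchanger of the red cell membrane, ran from 10.75 to 13.47 in spleen. None of the 13 haem synthesis genes was called, and Alas2, the erythroid first step of that pathway, had nearly the same median in marrow (13.15) and spleen (12.83).

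Cell division genes varied across the spleens as well. All 24 mitosis genes were lower in spleen in sign (median -1.34) and 3 passed 2-fold, while none of 24 DNA replication genes passed 2-fold (median -0.90). The median over all genes was -0.25. The mitosis mean was 10.76 to 10.96 in marrow. In spleen it was 10.41, 9.78, 8.43 and 9.72 in 1-day replicates 1 to 4, and 9.42, 10.18, 8.85 and 9.29 in 5-day replicates 1 to 4. The spleens with the 2 highest erythroid means, 1-day replicate 1 and 5-day replicate 2, also had the 2 highest mitosis means. Mki67, the Ki-67 proliferation marker, ran from 11.04 to 13.17 in spleen and from 13.11 to 13.44 in marrow.

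**Figure D3:**
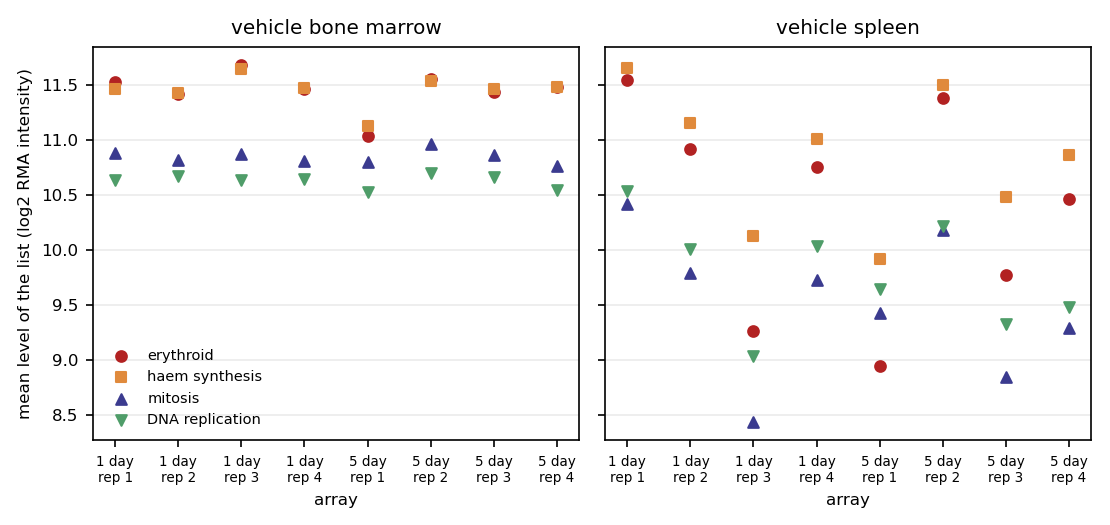
Mean log2 RMA intensity of the erythroid, haem synthesis, mitosis and DNA replication lists (y axis) in each vehicle array (x axis), marrow on the left and spleen on the right. Marrow arrays are even, while spleen 1-day replicate 3 and 5-day replicates 1 and 3 are low on the erythroid list.

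Most B cell precursor genes were higher in marrow and most mature B cell genes higher in spleen. Of 19 B cell precursor genes, 4 were called, all higher in marrow, and 10 passed 2-fold toward marrow against 2 toward spleen. In sign 15 were higher in marrow and 4 in spleen, among the latter Pax5, Ebf1 and Il7r (1.77, 0.42 and 0.45). Rag1 (Entrez gene 19373), which cuts DNA to assemble antigen receptor genes, was 9.06, 9.42 and 9.68 in marrow and 3.57, 3.71 and 3.90 in spleen. No spleen came near any marrow, and marrow was higher by 5.64 ± 0.09 (limma adjusted p = 2.75e-14). Its partner Rag2 was higher by 2.38 ± 0.11 and missed the call (adjusted p = 0.0759). Vpreb1 and Igll1, which form the surrogate light chain of the pre-B cell receptor, were higher by 4.71 ± 0.13 and 2.65 ± 0.12, although a dimmer Igll1 probe set showed 0.10. Dntt, which adds bases at the joints of rearranged genes, was higher by 3.07 ± 0.09. Vpreb3, kept on into later B cells, was 9.73 to 10.54 in marrow and 8.08 to 8.99 in spleen and passed neither minimum.

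The promoters of Vpreb1, Igll1 and Rag1 are printed because they are 3 of the 4 called precursor genes and share a match to the E-box CACCTG, the site type read by E proteins of early lymphocytes. Capitals mark the match, which reads CAGGTG where it lies on the other strand. Vpreb1 is at chr16:16869256-16869505 (- strand), Igll1 at chr16:16863986-16864235 (- strand) and Rag1 at chr2:101649533-101649782 (- strand), from RefSeq (GRCm38.p6), each 250 bases before the start.
Vpreb1: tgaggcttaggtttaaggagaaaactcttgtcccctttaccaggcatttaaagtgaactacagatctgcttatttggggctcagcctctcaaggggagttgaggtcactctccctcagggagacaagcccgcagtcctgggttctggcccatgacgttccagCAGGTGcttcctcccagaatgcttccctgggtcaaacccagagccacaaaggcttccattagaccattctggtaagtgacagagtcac
Igll1: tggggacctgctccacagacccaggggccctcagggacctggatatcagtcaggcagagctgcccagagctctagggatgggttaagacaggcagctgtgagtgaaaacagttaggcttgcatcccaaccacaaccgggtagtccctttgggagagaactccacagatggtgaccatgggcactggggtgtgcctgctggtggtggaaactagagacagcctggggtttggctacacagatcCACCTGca
Rag1: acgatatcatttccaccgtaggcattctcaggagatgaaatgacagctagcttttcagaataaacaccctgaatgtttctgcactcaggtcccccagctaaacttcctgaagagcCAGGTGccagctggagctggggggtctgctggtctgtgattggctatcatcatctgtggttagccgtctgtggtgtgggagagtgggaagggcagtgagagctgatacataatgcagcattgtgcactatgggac
Searched on both strands, CACCTG lay in 2005 of the 11791 single windows of tested genes (17%), in 22.9% of those called higher in marrow and in 17.9% of those called higher in spleen. It lay also in 3 of 5 called T cell genes with such a window, which were higher in spleen, so the letters did not track 1 tissue.

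Mature B cell genes were higher in spleen. Of 23 measured, 8 passed 4-fold and 16 passed 2-fold, all higher in spleen, with a median difference of 2.09. Cr2 (Entrez gene 12902), the complement receptor that marks follicular and marginal zone B cells and follicular dendritic cells, was 5.65, 6.06 and 6.74 in marrow and 10.45, 11.49 and 11.88 in spleen. Spleen was higher by 5.35 ± 0.17 (40.7-fold; limma adjusted p = 3.56e-10). Ccr6 and Cxcr5, chemokine receptors of B cells, were higher by 3.69 ± 0.13 and 3.29 ± 0.14. Fcer2a, the low-affinity IgE receptor CD23, was higher by 3.38 ± 0.13, and Ms4a1, which encodes CD20, by 2.47 ± 0.12. The Ms4a1 call was near the threshold (adjusted p = 0.0367) and was lost when any 1 of 12 of the 16 arrays was left out (adjusted p of 0.0506 to 0.0979). The signalling chains Cd79a and Cd79b, which precursors also carry, were higher by 1.55 ± 0.14 and 1.57 ± 0.13 and passed 2-fold only. Ighm, the IgM heavy chain, was bright in both tissues, at 13.18 to 13.88 in marrow and 14.82 to 15.02 in spleen. Dtx1, a Notch pathway gene of marginal zone B cells, was higher in spleen by 3.60 ± 0.13. Pax5, the B cell identity factor, was higher in spleen by 1.77 ± 0.11, past 2-fold. Ebf1, which acts with it from early stages, differed by 0.42 ± 0.15 with overlapping levels.

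Of 16 germinal centre and plasma cell genes, none passed 4-fold and 3 passed 2-fold toward spleen. Spleen 5-day replicate 1 stood apart here, with the highest list mean of all 16 arrays against 8.75 to 9.06 in the other 7 spleens and 8.60 to 8.80 in marrow. Prdm1, which drives plasma cell development, was 9.32 in that spleen and 7.26 to 7.88 in the others, and Mzb1, a chaperone of antibody-secreting cells, was 13.40 against 11.25 to 11.99. Ighg3, an IgG heavy chain outside this list, was higher in spleen by 4.15 ± 0.20 (17.7-fold) on its brightest probe set. Its other probe sets showed 3.57, 0.27 and 0.05, and the mean of all, 2.01, was not called. Igha, the IgA heavy chain, was bright in both, at 13.04 to 13.52 in marrow and 12.64 to 13.66 in spleen, with overlapping levels.

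T cell genes were higher in spleen, 7 of 26 at 4-fold and 20 of 26 at 2-fold, with none higher in marrow and a median difference of 2.12. Bcl11b, the T cell identity factor, was 4.98, 5.38 and 5.61 in marrow and 8.84, 9.01 and 9.75 in spleen, higher by 3.86 ± 0.14 (limma adjusted p = 3.54e-08). Cd3g, a chain of the T cell receptor complex, was higher by 3.83 ± 0.14, Cd5 by 3.04 ± 0.14 and the costimulatory receptor Cd28 by 2.81 ± 0.09. Cd8b1 and Cd8a, the 2 chains of the cytotoxic T cell coreceptor, were higher by 2.84 ± 0.15 and 2.54 ± 0.12. Cd4, the helper coreceptor, was higher by 1.04 ± 0.10 without passing 2-fold. Cd3d differed by 0.34 ± 0.14 and its levels overlapped, unlike Cd3g and Cd3e. Zap70, a kinase of T cell receptor signalling, was lower in spleen by 0.57 on its brightest probe set. It was higher by 2.13 and 1.44 on the others, so its direction depends on the probe set. The GTPases of lymphocyte survival Gimap3, Gimap4, Gimap5, Gimap6 and Gimap7 were each called higher in spleen, by 2.55 to 2.83. Without spleen 5-day replicates 1 and 3, Cd8a, Gimap5 and Gimap4 missed the call (adjusted p = 0.0545, 0.0545 and 0.129), and Gimap4 also missed it without any 1 of 5 single arrays (0.0509 to 0.0581).

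Natural killer and cytotoxic genes gave no 4-fold call among 23, with 9 higher in spleen and 1 in marrow at 2-fold. Gzma, granzyme A, was 10.07 to 10.55 in spleen and 8.46 to 9.30 in marrow, higher by 1.37 ± 0.12. Ncr1, a receptor of natural killer cells, was 7.24 to 7.84 in spleen and 7.28 to 7.66 in marrow, so these levels overlapped fully. Dendritic cell genes gave 1 call of 18, Cd83, a maturation marker shared with B cells, and 5 genes passed 2-fold toward spleen. Batf3, the factor of cross-presenting dendritic cells, was higher by 2.16 ± 0.08, and Itgae and Xcr1, which mark those cells in spleen, by 2.13 ± 0.06 and 1.59 ± 0.08. Flt3, the receptor of their progenitors, was nearly equal at medians of 8.02 and 8.21. Of 14 genes of MHC class II antigen presentation, 4 passed 4-fold and 8 passed 2-fold, all higher in spleen. Ciita, the master regulator of the class, was higher by 3.20 ± 0.11, more than the chains H2-Eb1 (2.87 ± 0.11) and H2-Ab1 (2.52 ± 0.11) or the invariant chain Cd74 (1.58 ± 0.10). The H2-Ab1 call was lost without spleen 5-day replicates 1 and 3 (adjusted p = 0.0781).

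**Figure D4:**
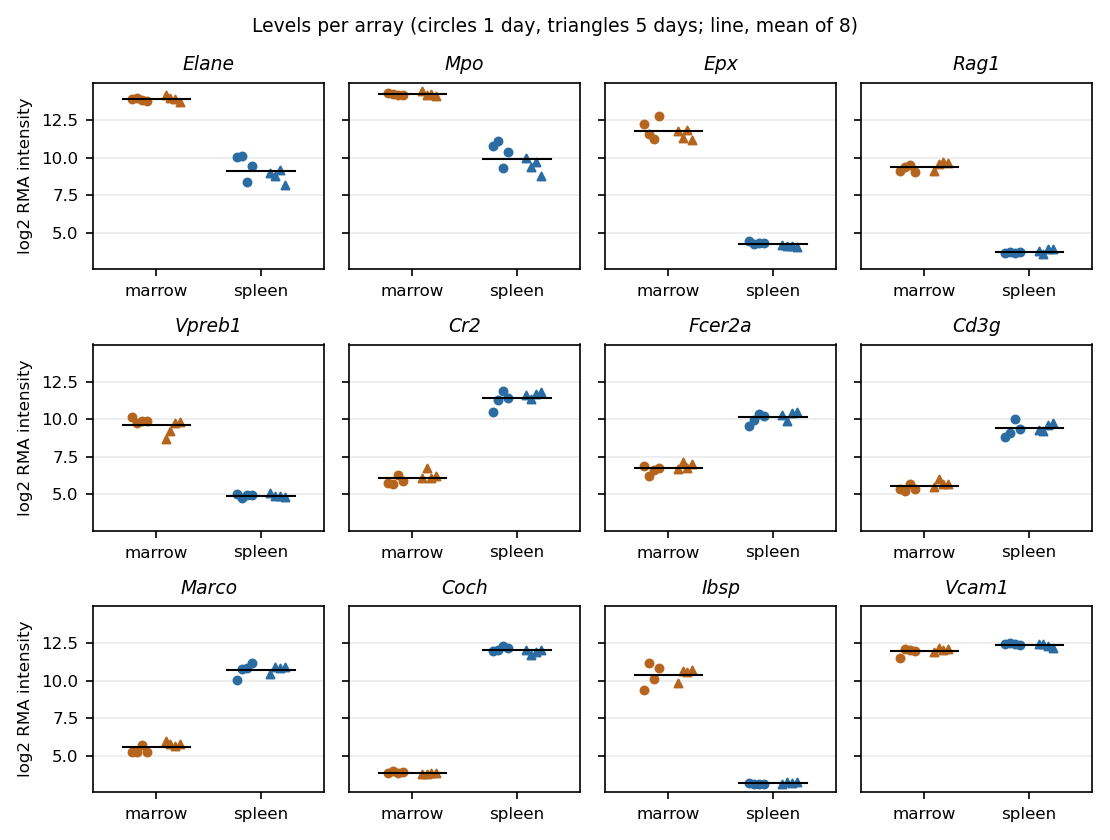
Log2 RMA intensity (y axis) of 12 genes in each of 8 vehicle marrow arrays (brown) and 8 vehicle spleen arrays (blue); circles are 1-day and triangles 5-day samples, and lines are means of 8. Elane, Mpo, Epx, Rag1, Vpreb1 and Ibsp are higher in every marrow, Cr2, Fcer2a, Cd3g, Marco and Coch are higher in every spleen, and Vcam1 differs by 0.40.

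Of 12 marginal zone macrophage genes, 2 were called higher in spleen, and at 2-fold 3 were higher in spleen and 1 in marrow. Marco, a scavenger receptor of these cells, was 5.22, 5.67 and 6.00 in marrow and 10.05, 10.82 and 11.16 in spleen, higher by 5.16 ± 0.13 (35.7-fold; limma adjusted p = 3.89e-11). Clec4n, which encodes the lectin dectin-2, was higher by 2.84 ± 0.11. Siglec1, a sialic acid receptor of marginal metallophilic macrophages, stood 0.57 ± 0.06 higher in marrow and passed neither minimum. Its dimmer probe sets showed -0.20 and 0.64, so its direction depends on the probe set. Cd209b, another gene of the list, was higher in spleen by 1.91 on its brightest probe set and by 3.39 on a dimmer one. Lyve1, a hyaluronan receptor, was higher in marrow by 1.92 ± 0.15. Red pulp macrophage genes gave no 4-fold call among 21, with 1 gene past 2-fold in each direction. Over all genes 1.95% passed 4-fold, and 4.60% passed 2-fold toward marrow and 3.51% toward spleen. The red pulp counts lay near these shares and do not set the list apart. The medians of the marginal zone and red pulp lists were 0.54 and 0.21 (spleen minus marrow, log2), and 0.62 and 0.59 after quantile normalization; the difference between the lists was not tested. Vcam1, an adhesion molecule, was 11.52 to 12.19 in marrow and 12.15 to 12.48 in spleen. Hmox1, which breaks down haem, had medians of 10.41 and 10.36, and Slc40a1, the iron exporter ferroportin, 11.73 and 11.59. Spic, a transcription factor of red pulp macrophages, was higher in spleen by 1.07 ± 0.09. Timd4, a receptor for dying cells, passed 2-fold at 1.94 ± 0.16. Vsig4, a complement receptor of resident macrophages, went the other way and was higher in marrow by 2.45 ± 0.10 (adjusted p = 0.00850; 0.0915 after quantile normalization).

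Splenic stroma gave 8 of 21 genes higher in spleen at 4-fold and 13 at 2-fold, with 1 higher in marrow. Tcf21 (Entrez gene 21412), a mesenchymal transcription factor needed to form the spleen, was 9.56, 10.28 and 10.89 in spleen and 3.57, 3.72 and 3.99 in marrow, higher by 6.47 ± 0.15 (88.5-fold), while a second probe set showed -0.02. Wt1 and Tlx1, factors with the same developmental need, were higher by 2.96 ± 0.10 and 2.04 ± 0.11, of which the second did not pass 4-fold. Nkx2-5 overlapped, with a difference of 0.20 ± 0.07. Among genes of follicle and sinus-lining stroma, Cxcl13, the chemokine that draws B cells, was higher in spleen by 4.03 ± 0.12. Madcam1, an addressin of the marginal sinus, was higher by 3.66 ± 0.09, and Mfge8, a bridging protein for dying cells, by 3.89 ± 0.12. The smooth muscle genes Tagln and Myh11 were higher by 3.58 ± 0.12 and 3.46 ± 0.16. Which part of the spleen gave these transcripts was not tested. The other Myh11 probe set, dimmer, showed -0.75, and the mean of both, 1.36, was not called. The exception was Lum, lumican, a matrix proteoglycan, higher in marrow by 4.71 ± 0.36. Other matrix and stromal genes among the largest 15 were Smoc2 (5.79 ± 0.16), Hmcn1 (4.85 ± 0.08), Npnt (4.73 ± 0.13), Efemp1 (4.26 ± 0.17) and Dpt (4.16 ± 0.09). Il33, an alarmin of stromal nuclei, and Lrat, which stores vitamin A as esters, were higher in spleen by 4.32 ± 0.11 and 4.31 ± 0.17, from marrow levels of at most 3.85. Of 24 endothelial genes none passed 4-fold: Plvap, of fenestrated vessels, was higher in spleen by 2.32 ± 0.10 and Emcn, of marrow sinusoids, higher in marrow by 2.07 ± 0.14, both past 2-fold.

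Bone and its surroundings marked the humerus samples. Of 17 osteoblast and bone matrix genes, 6 were higher in marrow and none in spleen. Ibsp (Entrez gene 15891), bone sialoprotein, was 9.35, 10.59 and 11.15 in marrow and 3.11, 3.15 and 3.27 in spleen, higher by 7.23 ± 0.20 (150-fold). Col11a1 and Col1a1, collagens of forming bone, were higher by 6.04 ± 0.35 and 4.46 ± 0.31, and Dmp1 and Phex, of osteocytes, by 4.72 ± 0.39 and 3.68 ± 0.25. The larger SEs reflect the marrow arrays, whose list mean ran from 7.85 to 9.09 while spleen ran from 6.02 to 6.21. A dimmer Phex probe set showed -0.25, and the mean of both, -1.97, was not called. Mepe, another osteocyte gene, was 4.99 to 5.35 in marrow and 5.00 to 5.22 in spleen. Wif1, a Wnt inhibitor, was higher in marrow by 5.24 ± 0.22 and Mmp13, a collagenase of bone and cartilage, by 5.06 ± 0.19. Fat genes Adipoq (adiponectin) and Fabp4 were higher in marrow by 5.35 ± 0.43 and 3.23 ± 0.30, but Adipoq reached 7.41 and 6.24 in spleen 1-day replicates 3 and 4 against at most 5.03 in the other spleens. The Fabp4 call (adjusted p = 0.0225) was lost after quantile normalization (0.0948) and when any 1 of 9 of the 16 arrays was left out (0.0504 to 0.0613). Among niche factors, Foxc1 and Ebf3 were higher in marrow by 2.93 ± 0.15 and 2.64 ± 0.12, and Lepr, the leptin receptor of niche stroma, stood 1.30 higher in marrow with all 4 probe sets of that sign and levels that just overlapped (7.93 to 8.97 in marrow, 6.94 to 7.93 in spleen). Skeletal muscle genes gave 4 of 14 higher in marrow, among them Myl1 (3.28 ± 0.11) and Acta1 (2.78 ± 0.16). Their list mean was 6.68 to 7.49 in marrow and 5.43 to 5.65 in spleen. Cartilage gave Col2a1 alone of 14 (3.44 ± 0.29).

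Chemokines and their receptors split along the same lines. Of 25 receptors, 4 were higher in spleen and 1 in marrow at 4-fold. Besides Ccr6 and Cxcr5, the 2 spleen calls were atypical receptors, which take up chemokine without signalling through G proteins. Ackr3 was 8.40, 8.85 and 9.05 in spleen and 3.90, 4.09 and 4.26 in marrow, higher by 4.70 ± 0.09, and Ackr2 was higher by 2.72 ± 0.09. Dimmer Ackr2 probe sets showed 0.04 and 1.55, and the mean of all, 1.44, was not called. Ccr1, of myeloid cells, was higher in marrow by 2.78 ± 0.15 (adjusted p = 0.00282; 0.0779 after quantile normalization). Ccr7, which guides T and dendritic cells, was higher in spleen by 2.38 ± 0.13 and Cxcr4 and Cxcr2, which hold and release neutrophils, were higher in marrow by 1.67 ± 0.08 and 1.92 ± 0.17. Those 3 passed 2-fold only. Of 29 ligands, Cxcl13 was called for spleen and Cxcl14, a ligand of epithelium and stroma, for marrow (3.44 ± 0.13). Cxcl12, the ligand of both Cxcr4 and Ackr3, was bright in both tissues, at 11.37 to 12.31 in marrow and 11.47 to 12.21 in spleen, and the sign of its small difference changed under quantile normalization (-0.30 to 0.14). That holds for its brightest probe set: the other 2 stood at -1.32 and -1.55, toward marrow.

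Other immune receptor families went both ways. Among 17 myeloid C-type lectins, Clec5a, Clec4d, Clec4e and Clec4a2 were higher in marrow by 5.01 ± 0.16, 3.44 ± 0.23, 3.19 ± 0.29 and 2.78 ± 0.12, and Clec4n higher in spleen. The Clec4e call (adjusted p = 0.0225) was lost after quantile normalization (0.0588), without spleen 5-day replicates 1 and 3 (0.0546) and when any 1 of 7 of the 16 arrays was left out (0.0511 to 0.0618). Clec4a3 had overlapping levels, with means of 8.99 in marrow and 8.96 in spleen. Of 14 Fc receptor genes, Fcer2a and Fcmr, the IgM receptor, were called for spleen, and Fcer1a, Ms4a2 and Fcgr3, an activating IgG receptor, for marrow, the last at 2.49 in the deposited values and 2.16, uncalled, after quantile normalization. Tlr3 and Tlr1 were the Toll-like receptors called of 17, higher in spleen by 2.67 ± 0.07 and 2.59 ± 0.13, with Tlr1 uncalled without spleen 5-day replicates 1 and 3 (adjusted p = 0.0664). Tlr2 was higher in marrow by 1.62 ± 0.09 and passed 2-fold only. Among 23 complement genes, C1s1 and Cfb, enzymes of the cascade, were called for spleen with Cr2, and the receptors C5ar1 and Itgam were called for marrow with Vsig4. Of 37 transcription factors of blood lineages, Gfi1, Nfil3 and Cebpd were called for marrow, by 2.87 ± 0.15, 2.85 ± 0.12 and 2.83 ± 0.16, and Bcl11b for spleen. The Cebpd call was lost after quantile normalization (adjusted p = 0.141). A dimmer Cebpd probe set showed -0.20, and the mean of both, -1.51, was not called. Of 28 haematopoietic cytokine receptors none passed 4-fold. Csf2ra and Csf3r, receptors for granulocyte growth factors, were higher in marrow by 2.26 ± 0.11 and 2.05 ± 0.18.

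**Figure D5:**
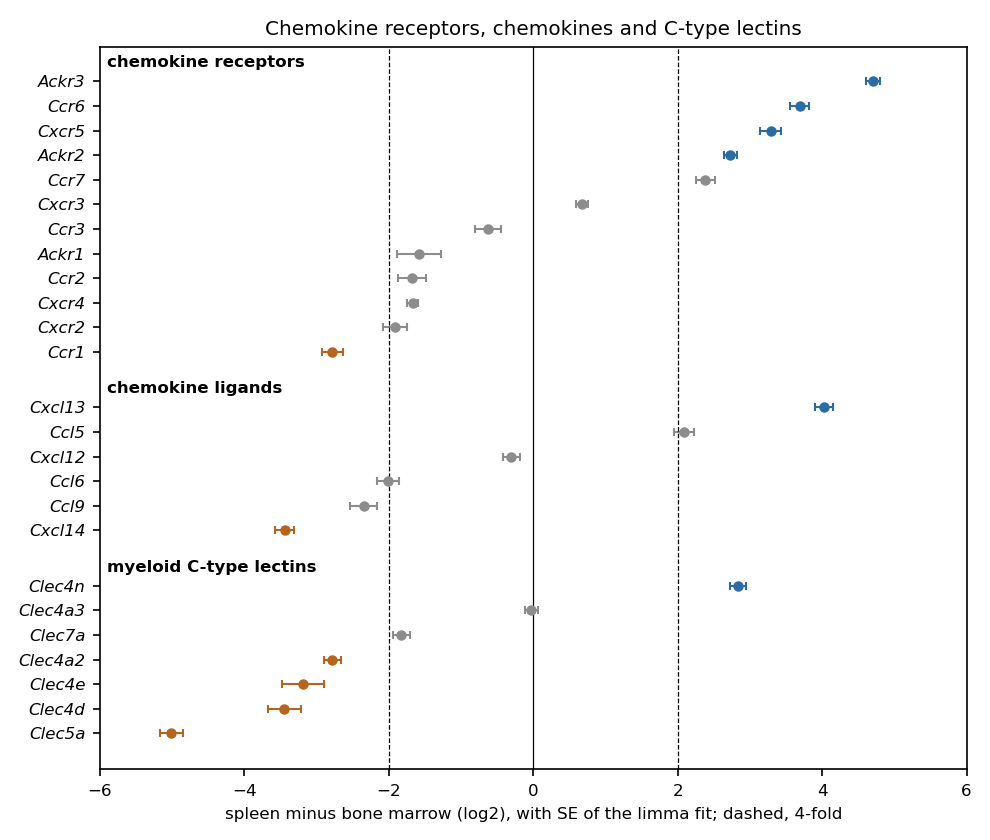
Difference between tissues (x axis, spleen minus marrow, log2 intensity) with the SE of the limma fit over 16 arrays, for chemokine receptors, chemokines and myeloid C-type lectins. Blue and brown points were called higher in spleen and in marrow, grey points were not called, and dashed lines mark 4-fold. Ackr3 lies at 4.70 and Clec5a at -5.01.

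Some called genes sat beside each other in the genome. Of 353 called genes placed by RefSeq gene order, 29 (8.22%) had a neighbouring tested gene called in the same direction, against 1.96% of all placed genes being called. These were 15 adjacent pairs, and 3 further pairs were called in opposite directions. Marrow pairs were Elane with Prtn3 on chromosome 10, Ctsg with Mcpt8 on 14, Vpreb1 with Igll1 on 16, Prg2 with Prg3 on 2, Ms4a2 with Ms4a3 on 19, Dmp1 with Ibsp on 5, Cd177 with Ceacam10 on 7, Clec5a with Mgam on 6, and Slco4c1 with Panct2 on 1. Spleen pairs were Cd8a with Cd8b1 and the Gimap genes on 6, and H2-Ob with H2-Ab1 on 17. In the lectin cluster on chromosome 6, Clec4n, higher in spleen, lay between Clec4a2 and Clec4d, both higher in marrow, and Clec4e followed Clec4d. Many of these pairs are related genes, and cross-hybridisation between relatives was not tested.

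The difference between tissues did not change detectably from 1 day to 5 days. None of the 18193 genes (0%) passed limma's test of the change of the difference (adjusted p under 0.05), and 347 had an unadjusted p under 0.05. The tissue difference was also called within each day alone, for 98 genes higher in spleen and 166 in marrow at 1 day, and for 116 and 166 at 5 days, each from 4 arrays a tissue.

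Of 11 housekeeping genes 10 were lower in spleen in sign (median -0.47, and -0.13 after quantile normalization), against a median of -0.25 over all genes. Pgk1, a glycolytic enzyme, was higher in marrow by 1.42 ± 0.08, past 2-fold, and its 3 probe sets pointed the same way. Of 17 cytosolic ribosomal protein genes none passed 2-fold, and their median of -0.03 became 0.23 under quantile normalization. Actb, beta-actin, was 14.85 to 14.90 in marrow and 14.49 to 14.60 in spleen, a difference of 0.33 whose sign also turned under quantile normalization (0.06). That holds for its brightest probe set: a dimmer Actb probe set stood 1.81 higher in spleen. B2m, the light chain of MHC class I, had medians of 13.89 and 13.84. Of 18 immediate early genes, Egr3, a zinc finger factor induced by antigen receptor signals, was the 1 call, at 8.36 to 9.51 in spleen and 5.17 to 5.87 in marrow. Egr3 was higher in spleen by 3.68 ± 0.12 (limma adjusted p = 4.18e-08) on its brightest probe set, but its other probe set, of similar brightness, showed -0.07, and the mean of both, 1.80, was not called.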

How the data were processed

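RNA was measured on 16 Affymetrix expression arrays of vehicle-treated mice, 4 per tissue and day. Per the submitters' processing notes the authors used RMA and limma, without versions; the aggregation of arrays in RMA is not given in the sources used here. The deposited values are RMA intensity on a linear scale, from 6.25 to 38101, taken to log2 here. With arrays, their number limits the precision.

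Of 45101 probe sets, 64 were controls. The platform annotation gave 1 symbol for 34945, several for 932 and none for 9160, and only the first kind was used (34741 had identifiers in RefSeq, assembly GRCm38.p6, and 0 symbols were updated). They stood for 18193 genes. Where a gene had several, its brightest probe set by the average of the 16 arrays was taken, and no brightness filter was used. In R 4.3.3, limma 3.58.1 fitted 4 group means and tested mean spleen minus mean marrow with treat (minimum 4-fold, Benjamini-Hochberg over all genes, adjusted p under 0.05) and the change from day 1 to day 5 with eBayes. The code was tested on simulated data. SEs are those of the fit. No 2 arrays were identical.

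Same-numbered marrow and spleen arrays were checked for pairing: correlations of deviations from group means ran from -0.124 to 0.443 and 4 of 8 exceeded 0.1. Other-numbered pairs of the same day ran from -0.302 to 0.205, and 3 of 24 exceeded 0.1. The labels do not give pairing, and the main fit used no block. The 48 lists (857 genes, 761 measured) and the comparison were chosen with earlier results of these data known. Named genes are the 15 largest calls in each direction, up to 4 calls per list and direction, or the 2 largest differences where a list had none; other genes of the lists, and neighbours of called genes, were added after their values were seen. Of the called genes 11 bear only clone identifiers and are not named. Promoter sequences are RefSeq's; 14452 tested genes had one, and motifs were chosen after values were seen. Alternatives were another scaling, brightness filters, other probe set rules, minimum folds, thresholds, variance models, array weights, all 40 marrow and spleen arrays, a replicate block, single days and left-out arrays, singly and the liver-carrying spleens together.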

Additional observations from a re-analysis of the deposited data

Results flagged for a closer look

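In each group of 4 arrays, levels of the genes and lists reported above were searched for a single array far from the other 3 by Dixon's 95% limit for the gap over the range. Of 816 groups of 4 values, 52 held such an array, where chance alone flags about 1 in 20. Levels are log2 intensity, and no cause was tested for any of them.

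Bone marrow 1-day replicate 1 was low for the germinal centre and plasma cell list at 8.60, the red pulp macrophage list at 9.22, Adipoq at 8.97, C1s1 at 5.77, Gimap6 at 7.49, Mecom at 5.13 and Timd4 at 6.56. High levels in bone marrow 1-day replicate 1 were Ccr2 at 11.83. Bone marrow 1-day replicate 2 was low for Gata2 at 8.29. High levels in bone marrow 1-day replicate 3 were Ccr7 at 7.02 and Marco at 5.73. Bone marrow 1-day replicate 4 was low for Myl1 at 6.78. High levels in bone marrow 1-day replicate 4 were Mfge8 at 8.55. Low levels in bone marrow 5-day replicate 1 were the haem synthesis list at 11.12, Cd3e at 7.16, Cd79a at 10.26, Ciita at 5.55, Ibsp at 9.87, Rag2 at 6.67 and Vpreb3 at 9.73. High levels in bone marrow 5-day replicate 1 were the granulocyte precursor granule list at 13.44, Gfi1 at 9.92, Igha at 13.15 and Panct2 at 8.29.

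Spleen 1-day replicate 1 was low for the B cell precursor list at 7.48, Cxcl13 at 9.44 and Madcam1 at 7.91. High levels in spleen 1-day replicate 1 were Ibsp at 3.20, Mmp13 at 4.52 and Phex at 3.14. For Ibsp and Phex the gap was small and at the dim end, with 3.12 to 3.13 and 3.00 to 3.01 in the other 1-day spleens. Spleen 1-day replicate 2 was low for Ncr1 at 7.41. Spleen 1-day replicate 3 was low for the megakaryocyte and platelet list at 8.44, Clec4n at 9.65, Itga2b at 9.15, Pf4 at 11.10 and Tubb1 at 9.56. High levels in spleen 1-day replicate 3 were the splenic stroma list at 8.57 and Cd3e at 10.10. Low levels in spleen 5-day replicate 1 were Marco at 10.45. Low levels in spleen 5-day replicate 2 were the B cell precursor list at 7.56, the marginal zone and B1 B cell list at 9.58, Cxcr5 at 9.71, Efemp1 at 6.86, Lrat at 7.51, Pax5 at 8.36, Siglecf at 3.43, Slc40a1 at 11.40 and Wt1 at 6.63. High levels in spleen 5-day replicate 3 were the marrow niche stroma and fat list at 7.51. Low levels in spleen 5-day replicate 4 were Lum at 4.05, S100a8 at 12.61 and S100a9 at 12.10.

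The 5 widest gaps were those of Adipoq (8.97 in bone marrow 1-day replicate 1, 10.55 to 10.61 in the other 3), C1s1 (5.77 in bone marrow 1-day replicate 1, 6.86 to 7.07 in the other 3), S100a9 (12.10 in spleen 5-day replicate 4, 13.16 to 13.33 in the other 3), Efemp1 (6.86 in spleen 5-day replicate 2, 7.91 to 7.97 in the other 3), Cxcl13 (9.44 in spleen 1-day replicate 1, 10.44 to 10.46 in the other 3). Spleen 1-day replicate 3, low for 3 platelet genes and their list, also had the lowest erythroid mean of its day, 9.26. The called genes among those above still had no overlap between the 8 marrow and the 8 spleen levels.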

How the results depend on the processing

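The 140 genes higher in spleen and 214 higher in marrow became 33 and 91 with a brightness filter at the 60th percentile, 241 and 323 probe sets with every probe set tested apart, 3909 and 10598 with no minimum fold, 639 and 837 with a minimum of 2-fold, and 37 and 76 with a minimum of 8-fold. Chosen after seeing the data, quantile normalization with a minimum of 2-fold gave 806 and 622, and with no minimum fold 5790 and 7157. Quantile normalization alone gave 186 and 169. Leaving out 1 array gave 128 to 159 higher in spleen and 196 to 213 higher in marrow. With the replicate block, the number within a day taken as a pair, 136 and 217 genes were called and none for the change between days. Of the named calls Mmrn1 (limma adjusted p = 0.0612) and Tlr1 (0.0743) missed the threshold. The labels do not say that the numbers pair the samples. The count of genes whose tissue difference changed between days stayed at 0 by limma in every alternative run for it, with 38 to 1140 at unadjusted p under 0.05.

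Of 108 called genes named above, 103 kept the call when any 1 array was left out, and 0 reversed in any alternative. Averaging all probe sets per gene lost 11 of them: Ackr2, Cd8a, Cebpd, Egr3, Fabp4, Ighg3, Igll1, Mmrn1, Myh11, Phex and Tlr3. The 1-day arrays alone lost 27 and the 5-day arrays alone 12, with fewer arrays in this pair of fits. Depth has no counterpart here; RMA background and saturation limit folds at the dim and bright ends.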

Other observations

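Interferon response genes gave no call between the tissues at either minimum, yet their levels in same-numbered marrow and spleen arrays ran together. These genes, such as the oligoadenylate synthetases, are induced by type I interferon and act against viruses. The mean of 18 of them in marrow was 9.07, 8.37, 8.67 and 8.92 in 1-day replicates 1 to 4 and 8.24, 8.91, 8.57 and 8.47 in 5-day replicates 1 to 4. In spleen the same order gave 8.99, 8.63, 8.46 and 8.86, then 8.29, 8.87, 8.61 and 8.55. The 2 tissues of a number differed by at most 0.259. As a description over 8 pairs, chosen after the values were seen and with no test, Pearson's r was 0.886 and Spearman's rho 0.762, r was 0.869 with each day centred, and 0.719 without the 2 pairs farthest from the median marrow value. It was the highest r of the 48 lists.

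Oas2, a member of that list, was 9.14, 8.67, 8.49 and 9.31 in marrow and 8.68, 8.34, 8.11 and 8.77 in spleen in 1-day replicates 1 to 4, and its r over the 8 pairs was 0.948. Of the 18 genes, 6 had r above 0.8, against 2.04% of all genes tested, whose median r was 0.135. Mx2, Ddx58, Zbp1 and Gbp3 had negative values, so the likeness did not hold for the whole list. The hepatocyte list came second at 0.869, but fell to 0.079 without its 2 farthest pairs. By that measure other lists stood above the interferon list, among them granulocyte precursor granule (0.971) and lymphoid tissue organizer (0.956). With each day centred, the chemokine receptor list had an r of 0.868. In the check for pairing, 4 of 8 same-numbered pairs correlated above 0.1, against 3 of 24 other-numbered pairs of the same day. Whether a number marks 1 animal is not given in the labels.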
